A study of Mus musculus with 12 samples.

Results

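Slc15a2, Ptk6, Capn8, Irx1, Sdcbp2, Rufy4, Lrtm1 and A4gnt were among the genes with the largest differences between PPARγ-KO and WT liver in this fast-food diet (FFD) series, and none of them is an enzyme or droplet protein of lipid metabolism. They are 8 of the 54532 genes counted in each library, and 28715 of those had a count in at least 1 library. Each was chosen by its fold change on these same libraries. Slc15a2, Ptk6, Capn8 and Irx1 were chosen by the contrast of PPARγ-KO with WT at 2 months, and Sdcbp2, Rufy4, Lrtm1 and A4gnt by the contrast at 5 months. The contrast that chose a gene is therefore given as a description with no test. The contrast at the other time, whose 6 libraries did not enter the ranking by fold change, is given with its test. The 8 genes were picked with earlier results of these data known, so full independence of these tests from the choice is not established.

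Liver RNA came from male mice homozygous for floxed PPARγ alleles, given one intraperitoneal dose of an AAV8 vector at 8 weeks of age and then kept on FFD with sugared drinking water. PPARγ-KO mice received Cre recombinase and their WT littermates enhanced green fluorescent protein, so that both genotypes carried the floxed alleles and a vector. Both vectors used the thyroxine-binding globulin promoter, which is active in hepatocytes, and PPARγ in other liver cells was left in place. Each genotype was sequenced after 2 and after 5 months of FFD with 3 libraries, 12 in all. The labels call the libraries repeats without naming animals, and a p-value measures the spread between these libraries.

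PPARγ is a nuclear receptor that binds DNA together with a retinoid X receptor, at direct repeats of a short half-site, and that is best known for driving fat storage genes. In hepatocytes of a fatty liver it is known for genes of lipid droplets and lipid uptake. The 8 genes lie outside that set. SLC15A2 is a proton-coupled carrier of short peptides, known from kidney and brain. PTK6 is a nonreceptor tyrosine kinase of epithelia, CAPN8 is a calcium-dependent protease known from the stomach lining, and IRX1 is a homeobox transcription factor of embryonic patterning. SDCBP2 is a scaffold of the syntenin family with paired PDZ domains, and RUFY4 is an adaptor of autophagy and lysosome positioning described in dendritic cells. LRTM1 is a leucine-rich repeat membrane protein. A4GNT is the Golgi enzyme that caps gastric mucin O-glycans with N-acetylglucosamine.

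The sequence just before the start of transcription is shown for Slc15a2 and Sdcbp2, which had the largest differences in each direction, and for Capn8, which was called at the time that did not choose it. Rufy4 was likewise called at the time that did not choose it, and its sequence is not printed. RefSeq entries on GRCm38.p6, the assembly of mm10, matched 6 of the 8 genes, and none was used for Ptk6 and Irx1. Each line gives the 150 bases that end directly before the RefSeq start, 5′ to 3′ on the strand of the gene, at chr16:36784963-36785112 (minus strand) for Slc15a2, chr1:182564857-182565006 (plus strand) for Capn8 and chr2:151572473-151572622 (plus strand) for Sdcbp2. Capitals mark the 13-base window with the fewest mismatches to a direct repeat of AGGTCA on either strand with 1 base between the copies, the arrangement that PPARγ and its partner are known to bind.
Slc15a2: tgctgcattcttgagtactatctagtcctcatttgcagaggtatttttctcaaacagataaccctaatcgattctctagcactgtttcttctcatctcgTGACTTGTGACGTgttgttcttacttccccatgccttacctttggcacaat
Capn8: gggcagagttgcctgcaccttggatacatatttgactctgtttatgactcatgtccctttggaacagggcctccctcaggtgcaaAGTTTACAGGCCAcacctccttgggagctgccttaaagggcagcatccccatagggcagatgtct
Sdcbp2: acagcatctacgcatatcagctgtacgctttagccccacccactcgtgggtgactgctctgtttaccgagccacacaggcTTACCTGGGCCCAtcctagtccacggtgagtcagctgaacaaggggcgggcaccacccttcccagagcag
The window of Slc15a2 lay 51 to 39 bases before the start with 2 mismatches, and 3.86% of all 32851 RefSeq promoter windows of 300 bases held a window at least as close. The window of Capn8 lay 65 to 53 bases before the start with 3 mismatches, as close as or closer than which 24.6% of all promoters came. The windows of Sdcbp2, Rufy4 and Lrtm1 had 4 mismatches, reached by 79.8% of promoters, and that of A4gnt had 5. The half-site AGGTCA itself, read on either strand and also counted where it falls inside a repeat, was in 0 of the 6 promoter windows and in 16.3% of all promoters. These are matches of letters in a short window and carry no measurement of binding.

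The 12 libraries held 16367775 to 27452284 counts. Levels are given as CPM, counts scaled to a common library size and normalized by edgeR's TMM method over the 12 libraries. Hepatocyte markers dominated every library, and none of the 10 hepatocyte markers was at 0. WT replicate 1 at 2 months stood apart from its group, with a chi-square per gene of 28.68 and 25.01 against replicates 2 and 3, which differed from each other by 9.411. In WT at 5 months, replicates 2 and 3 were the closest of all pairs within a group, at 2.35. Replicate 1 differed from them by 12.1 and 13.38, which lay within the span of the PPARγ-KO pairs. Those pairs differed by 12.79, 13.31 and 15.94 at 2 months. Their values at 5 months were 14.77, 10.84 and 8.613. Whether the 2.35 understates the spread between WT libraries at 5 months was not tested. Pparg, the gene targeted for deletion, was not lower in the libraries labelled PPARγ-KO. It had 39.3 ± 1.91 CPM in WT and 56.3 ± 8.84 in PPARγ-KO at 2 months, and 38.5 ± 2.54 and 84.8 ± 9.06 at 5 months (SD, n = 3 each). Counts are for whole genes, so the deleted exons cannot be read separately, and every direction below follows the labels. Cidec, a lipid droplet gene known as a target of PPARγ, ran with the labels, at 14.5-fold lower in PPARγ-KO at 2 months (edgeR adjusted p = 0.0117) and 6.48-fold lower at 5 months (2.91e-06). Cfd, which encodes the complement protease adipsin, had 0 counts in the 6 PPARγ-KO libraries and 70 to 599 in the 6 WT libraries. Both are from a list of 8 adipocyte markers, of which 4 were tested at each time. Adrb3 was called higher in PPARγ-KO at 2 months (log2 fold change 1.26, edgeR adjusted p = 0.0298) and was -0.84 at 5 months (0.0841). Pck1 was 0.49 and 0.10, called at neither time. Cidec had rank 3 among the lower genes at 2 months and Cfd rank 1 at 5 months, so neither is an independent check of the labels.

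**Figure D1:**
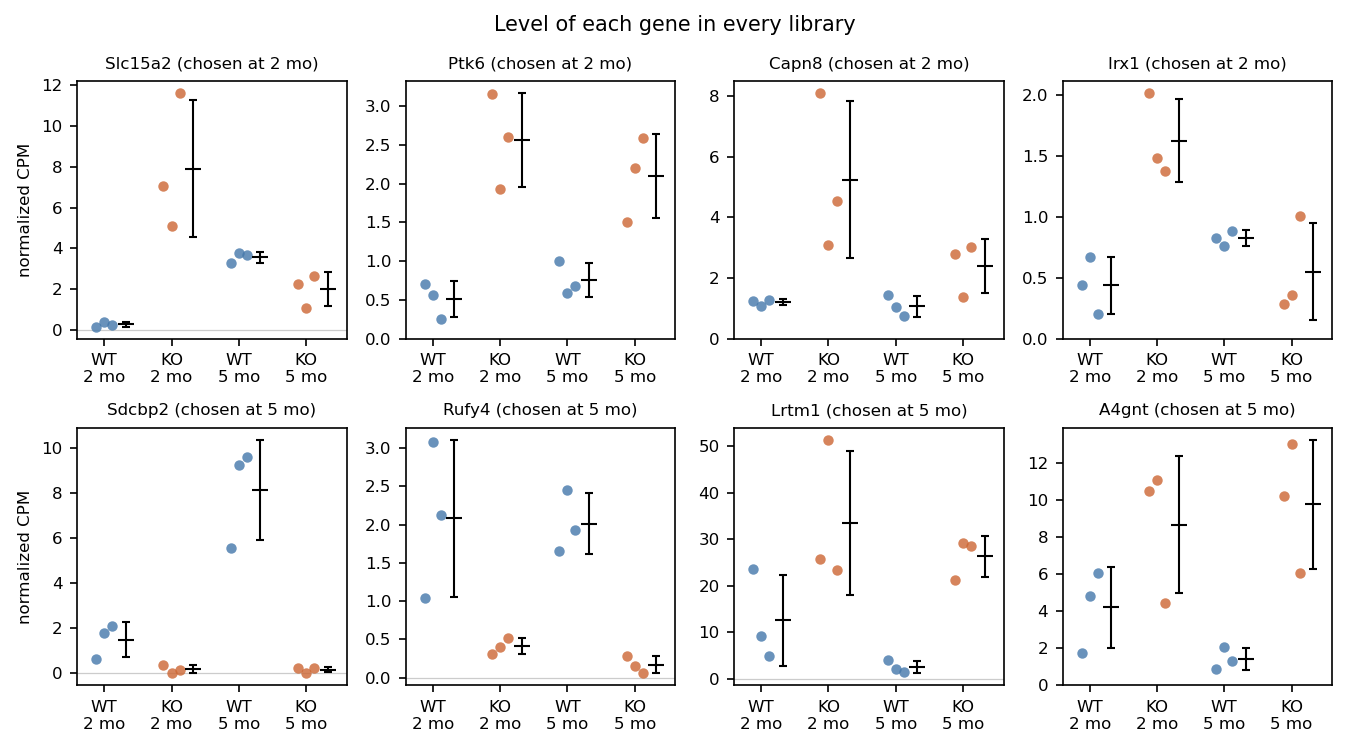
Normalized CPM of each of the 8 genes (y axis, linear) in the 4 groups (x axis). Each point is 1 library, blue for WT and orange for PPARγ-KO, and the bar beside it is the mean ± SD of 3 libraries. Slc15a2 is highest in PPARγ-KO at 2 months and Sdcbp2 in WT at 5 months.

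Among the genes chosen at 2 months, the peptide carrier Slc15a2 (ENSMUSG00000022899, chr16:36750177-36784962) had the largest difference and did not keep its direction at 5 months. In WT it had 3, 8 and 5 counts at 2 months, or 0.164, 0.412 and 0.254 CPM. In PPARγ-KO it had 136, 89 and 312 counts, or 7.04, 5.07 and 11.6 CPM. All 3 PPARγ-KO libraries lay far above all 3 WT libraries, with a fitted log2 fold change of 4.81 (SE 0.432). At 5 months WT had 3.26, 3.79 and 3.65 CPM and PPARγ-KO had 2.27, 1.08 and 2.65 CPM. Here all 3 PPARγ-KO libraries lay below all 3 WT libraries. The log2 fold change was -0.84 (SE 0.283, 95% interval -1.45 to -0.23), and it did not pass the threshold (edgeR adjusted p = 0.0568). It passed without PPARγ-KO replicate 3 (edgeR adjusted p = 0.0478), with library size alone as the scaling (0.0487) and with no filter on low counts (0.00922). The difference between the times was not tested.

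Ptk6 and Capn8 were higher in PPARγ-KO at 2 months and were called higher at 5 months as well. Ptk6 (ENSMUSG00000038751, chr2:181193721-181202789), the epithelial tyrosine kinase, had 0.709, 0.566 and 0.254 CPM in WT and 3.16, 1.94 and 2.61 CPM in PPARγ-KO at 2 months (log2 fold change 2.33, SE 0.379). At 5 months it had 1.01, 0.583 and 0.679 CPM in WT and 1.51, 2.20 and 2.59 CPM in PPARγ-KO. The groups did not overlap at either time. At 5 months, Ptk6 rose 2.77-fold (log2 fold change 1.47, SE 0.335, edgeR adjusted p = 0.00849), and it was called in all 13 alternatives, with edgeR or DESeq2 adjusted p from 0.000593 to 0.0466.

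The stomach calpain Capn8 (ENSMUSG00000038599, chr1:182565007-182632352) had 1.25, 1.08 and 1.27 CPM in WT and 8.13, 3.08 and 4.54 CPM in PPARγ-KO at 2 months (log2 fold change 2.12, SE 0.36). At 5 months WT had 1.42, 1.05 and 0.731 CPM and PPARγ-KO had 2.78, 1.38 and 3.03 CPM. PPARγ-KO replicate 2 lay within the WT range at 5 months, and the other two lay above it. Capn8 rose 2.26-fold at 5 months (log2 fold change 1.18, SE 0.356, edgeR adjusted p = 0.0359). The call was lost without WT replicate 2 (edgeR adjusted p = 0.101), WT replicate 3 (0.144), PPARγ-KO replicate 1 (0.107) or PPARγ-KO replicate 3 (0.145), and in a fit of all 12 libraries (0.0697).

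Irx1 (ENSMUSG00000060969, chr13:71957921-71963723), the homeobox factor, was the gene chosen at 2 months with the fewest counts. At 2 months it had 0.436, 0.669 and 0.203 CPM in WT and 2.02, 1.48 and 1.38 CPM in PPARγ-KO, with no overlap (log2 fold change 1.88, SE 0.421). At 5 months it had 0.829, 0.758 and 0.887 CPM in WT and 0.283, 0.359 and 1.01 CPM in PPARγ-KO. The 2 lowest libraries and the highest of the 6 were all PPARγ-KO. The log2 fold change at 5 months was -0.64 (SE 0.477, 95% interval -1.67 to 0.39, edgeR adjusted p = 0.41), on 6 to 17 counts a library.

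Among the genes chosen at 5 months, Sdcbp2 and Rufy4 were lower in PPARγ-KO and close to undetected there. Sdcbp2 (ENSMUSG00000027456, chr2:151572622-151590005), the syntenin scaffold, had 94, 159 and 184 counts in WT at 5 months and 4, 0 and 3 counts in PPARγ-KO, or 5.57, 9.27 and 9.60 CPM against 0.189, 0 and 0.189. The log2 fold change was -5.96 (SE 0.451), and the 0 of PPARγ-KO replicate 2 allowed a level of up to 0.154 CPM by counting error alone. At 2 months WT had 11, 34 and 41 counts (0.600, 1.75 and 2.08 CPM) and PPARγ-KO had 7, 0 and 3 (0.362, 0 and 0.112 CPM). The groups did not overlap at 2 months either, with WT replicate 1 the lowest of its group. The log2 fold change was -3.19 (SE 0.753, 95% interval -4.89 to -1.49), and it did not pass the threshold (edgeR adjusted p = 0.0561). It passed without WT replicate 1 (edgeR adjusted p = 0.00496), in DESeq2 (0.00114), with no filter on low counts (3.72e-07) and in a fit of all 12 libraries (0.0171).

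Rufy4 (ENSMUSG00000061815, chr1:74125541-74148223), the autophagy adaptor, was the gene chosen at 5 months that was also called at 2 months. At 5 months it had 28, 42 and 37 counts in WT and 6, 3 and 1 in PPARγ-KO, or 1.66, 2.45 and 1.93 CPM against 0.283, 0.154 and 0.0631 (log2 fold change -3.46, SE 0.441). At 2 months WT had 1.04, 3.09 and 2.13 CPM and PPARγ-KO had 0.31, 0.399 and 0.521 CPM. The groups did not overlap at either time. Rufy4 was 4.94-fold lower at 2 months (log2 fold change -2.30, SE 0.454, edgeR adjusted p = 0.0253). The call held without WT replicate 1 (edgeR adjusted p = 0.0013) and was lost when any other library of the comparison was left out, with edgeR adjusted p of 0.116 without WT replicate 2, 0.0863 without WT replicate 3, and 0.108, 0.0782 and 0.0725 without PPARγ-KO replicates 1, 2 and 3.

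Lrtm1 and A4gnt were higher in PPARγ-KO at 5 months, and neither was called at 2 months. Lrtm1 (ENSMUSG00000045776, chr14:29018208-29033645), the leucine-rich repeat membrane protein, had 68, 36 and 29 counts in WT and 450, 571 and 452 in PPARγ-KO at 5 months, or 4.03, 2.10 and 1.51 CPM against 21.2, 29.3 and 28.5 (log2 fold change 3.39, SE 0.312). At 2 months it had 23.6, 9.31 and 4.97 CPM in WT and 25.7, 51.4 and 23.4 CPM in PPARγ-KO. WT replicate 1, which stood apart from its group, lay just above PPARγ-KO replicate 3, and the other WT libraries lay below all 3 PPARγ-KO libraries. The log2 fold change at 2 months was 1.41 (SE 0.699, 95% interval -0.46 to 3.28, edgeR adjusted p = 0.386). Without WT replicate 1 it was 2.22, a change of more than 1.5 times in the fold, and still not called (edgeR adjusted p = 0.147).

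The mucin glycosyltransferase A4gnt (ENSMUSG00000037953, chr9:99612502-99622367) had 15, 35 and 25 counts in WT and 216, 254 and 96 in PPARγ-KO at 5 months, or 0.889, 2.04 and 1.31 CPM against 10.2, 13.02 and 6.06 (log2 fold change 2.80, SE 0.352). At 2 months it had 1.75, 4.79 and 6.04 CPM in WT and 10.5, 11.1 and 4.43 CPM in PPARγ-KO. PPARγ-KO replicate 3 lay within the WT range and the other two lay above it. The log2 fold change at 2 months was 1.03 (SE 0.538, 95% interval -0.30 to 2.36, edgeR adjusted p = 0.383), and it was 0.66 without WT replicate 1 (edgeR adjusted p = 0.467).

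**Figure D2:**
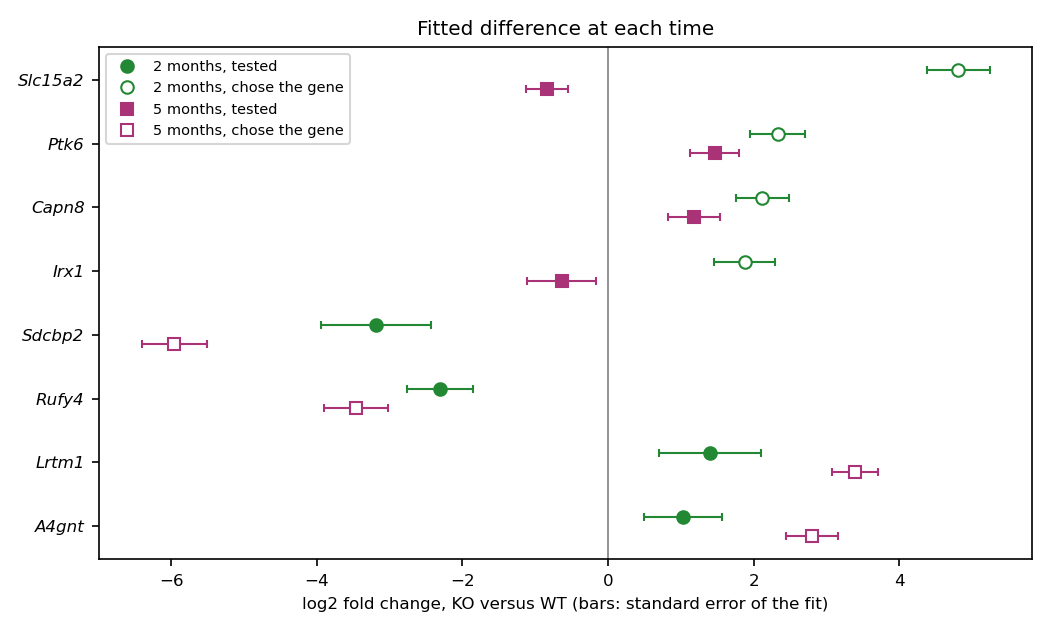
Fitted log2 fold change of PPARγ-KO versus WT (x axis) for each of the 8 genes (y axis), with bars of 1 standard error. Circles are 2 months and squares 5 months, and open symbols mark the contrast that chose the gene. Ptk6, Capn8, Sdcbp2, Rufy4, Lrtm1 and A4gnt lie on the same side of 0 at both times, and Slc15a2 and Irx1 on opposite sides.

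Counted over the tested contrasts, 2 of the 4 genes chosen at 2 months (Ptk6 and Capn8) were called at 5 months, where edgeR called 18.4% of the 14138 genes tested. Of the 4 genes chosen at 5 months, 1 (Rufy4) was called at 2 months, where edgeR called 3.56% of 14573 genes. At 2 months the deviations of same-numbered libraries from their group means correlated at 0.139 to 0.324, beside up to 0.115 for differently numbered ones. With the replicate number as a block edgeR called 817 genes there in place of 519, or 5.61% of those tested. Again 1 of the 4 was among them. Without WT replicate 1 it called 1577 genes, 10.6% of those tested, and 2 of the 4, Sdcbp2 and Rufy4. At 5 months, PPARγ-KO and WT did not overlap for 2 of the 4 genes chosen at 2 months, Ptk6 and Slc15a2, beside 34.8% of all genes tested. At 2 months they did not overlap for 2 of the 4 chosen at 5 months, Sdcbp2 and Rufy4, beside 24.1% of all genes tested.

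**Figure D3:**
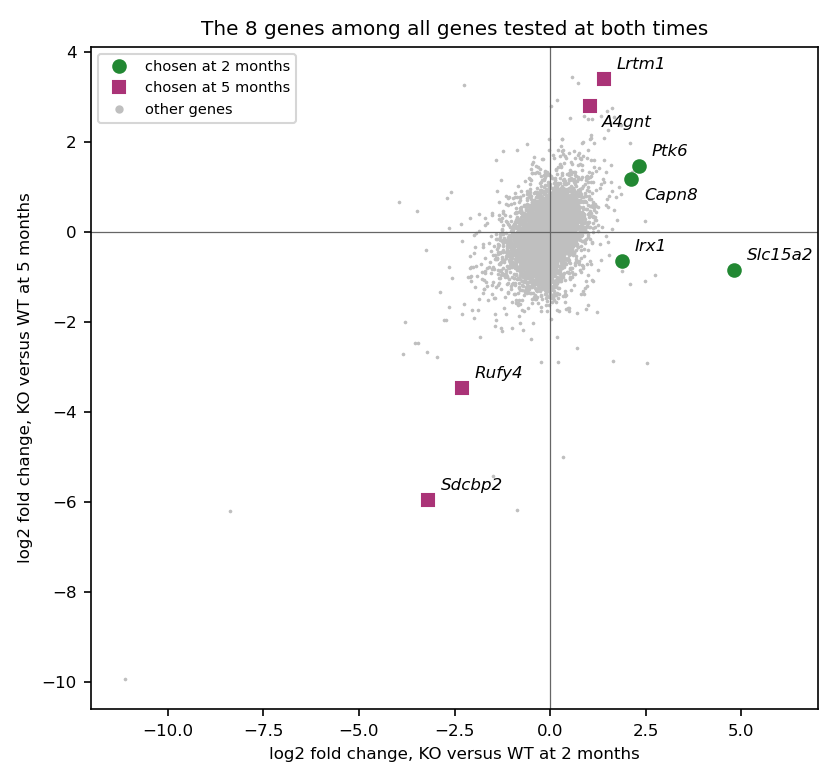
Log2 fold change of PPARγ-KO versus WT at 2 months (x axis) and at 5 months (y axis) for every gene tested at both times (grey), with the 8 genes marked by the time that chose them. The 4 green circles lie from 1.88 to 4.81 on the x axis, where their choice put them, and from -0.84 to 1.47 on the y axis.

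The rule that chose the genes took those called at one time, without overlap between the groups and with 1 CPM or more as the mean of one group, that led the ranking by fold change. At 2 months the higher genes were led by Slc15a2, Ptk6 and Capn8, followed by Hamp2 (log2 fold change 2.09), which is not among the 8, and Irx1 (1.88). Susd4 came next at 1.86. At 5 months Lrtm1 had rank 2 and A4gnt rank 5 among the higher genes, with Chrna4 next at 2.76. Sdcbp2 had rank 3 and Rufy4 rank 6 among the lower genes, with Acod1 next at -2.88. At 5 months Zbtb16, Cyp2b13 and Ciart also ranked above A4gnt among the higher genes (3.45, 2.93 and 2.81) and are not among the 8, nor are the 4 other lower genes ranked above Rufy4.

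Within each genotype, the 8 genes differed between 2 and 5 months in ways that the contrasts of genotype do not show, and these values are a description because each shares libraries with a contrast that chose a gene. Time on FFD, age, hour of harvest and any difference in preparation or sequencing between the 2 times cannot be told apart. Over all genes tested, edgeR called 6725 of 14491 between the times in WT and 6502 of 14478 in PPARγ-KO. The share of all genes without overlap between the times was not counted, so the overlaps below have no background. Several genes of the circadian clock differed between the times in both genotypes. On the log2 scale at 5 versus 2 months, Arntl was 2.13 in WT and 1.63 in PPARγ-KO. Per3 was -2.81 and -2.23, Dbp -2.10 and -1.64, and Cry1 -0.16 and 0.19. The hour of harvest is not given in the sources used here, and its part was not tested. Slc15a2 was 3.65 higher on the log2 scale at 5 than at 2 months in WT (SE 0.346), and the same difference was -2.02 in PPARγ-KO (SE 0.411), so that PPARγ-KO at 2 months and WT at 2 months were the extremes of its 4 groups. Irx1 had the same shape at a smaller size, at 0.91 in WT (SE 0.46) and -1.62 in PPARγ-KO (SE 0.439). For both genes all 3 libraries at 5 months lay above all 3 at 2 months in WT and below them in PPARγ-KO.

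For Sdcbp2, Lrtm1 and A4gnt, the larger difference over time was in WT. Sdcbp2 was 2.45 higher on the log2 scale in WT at 5 months (SE 0.382), whereas in PPARγ-KO its 0 to 7 counts a library were too few for the fit. Lrtm1 was -2.32 in WT (SE 0.76) and -0.34 in PPARγ-KO (SE 0.379), and A4gnt was -1.57 in WT (SE 0.475) and 0.20 in PPARγ-KO (SE 0.459). In WT, all 3 libraries at 5 months lay below all 3 at 2 months for Lrtm1, and 2 of 3 did for A4gnt, while the PPARγ-KO levels of both genes overlapped between the times. Rufy4 differed by -0.06 in WT (SE 0.366), and in PPARγ-KO, where it was also too low for the fit, all 3 libraries at 5 months lay below all 3 at 2 months. Ptk6 differed by 0.57 in WT (SE 0.466) and -0.31 in PPARγ-KO (SE 0.272). Capn8 was -0.18 in WT (SE 0.341) and -1.14 in PPARγ-KO (SE 0.421), with no overlap between the times in PPARγ-KO.

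The order of the 4 groups differed from gene to gene. For Slc15a2 it ran from PPARγ-KO at 2 months (7.91 ± 3.35 CPM) through WT at 5 months (3.57 ± 0.275) and PPARγ-KO at 5 months (2.00 ± 0.82) to WT at 2 months (0.276 ± 0.126), and each group lay clear of the next. Lrtm1 ran from 33.5 ± 15.5 CPM in PPARγ-KO at 2 months through 26.3 ± 4.44 in PPARγ-KO at 5 months and 12.6 ± 9.76 in WT at 2 months to 2.55 ± 1.32 in WT at 5 months, and only the last lay clear of its neighbour (SD, n = 3 for each group). Ptk6 and A4gnt had both PPARγ-KO groups above both WT groups by their means. In Ptk6 the 2 genotypes were clear of each other, and in A4gnt every group overlapped its neighbour in the order. Capn8 had the same order of genotypes, with PPARγ-KO at 2 months above PPARγ-KO at 5 months and the WT groups overlapping below.

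Sdcbp2 and Rufy4 had the WT groups above both PPARγ-KO groups. In Sdcbp2, WT at 5 months (8.15 ± 2.24 CPM) lay clear of WT at 2 months (1.48 ± 0.777), and the PPARγ-KO groups overlapped at 0.158 ± 0.186 and 0.126 ± 0.109. In Rufy4 the WT groups overlapped at 2.09 ± 1.03 and 2.01 ± 0.401, and PPARγ-KO at 2 months (0.410 ± 0.106) lay clear above PPARγ-KO at 5 months (0.167 ± 0.111; SD, n = 3 for each group). Irx1 had PPARγ-KO at 2 months at the top (1.63 ± 0.344 CPM) and the other 3 groups in overlapping order below.

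All 8 genes were of low to middle abundance in liver. By mean CPM over the 12 libraries they stood above 53.3% (Irx1) to 78.2% (Lrtm1) of the 28715 genes with a count. Per kilobase of exon, WT at 5 months was led by Sdcbp2 (5.82 ± 1.60 CPM per kb), with the other 7 genes at 0.205 to 0.864. In PPARγ-KO at 5 months, A4gnt (3.54 ± 1.27 CPM per kb) and Lrtm1 (3.32 ± 0.559) led and did not differ beyond their spread (SD, n = 3 each). Sdcbp2, rank 1 of the 8 in WT at 5 months, was rank 7 in PPARγ-KO at 0.0901 CPM per kb.

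The families and partners of the 8 genes gave 59 further genes, listed with earlier results of these data known. At 2 months, 39 of them were tested and edgeR called 0, beside 3.56% of all genes tested. At an unadjusted p under 0.05 the count was 6, and DESeq2 called 3, beside 6.78% of all genes tested. At 5 months, 40 were tested, of which 3 were called higher and 8 lower, or 27.5% beside 18.4% of all genes. The median log2 fold change of the tested relatives was 0.04 at 2 months and -0.03 at 5 months, beside -0.005 and -0.006 over all genes tested.

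Among the relatives of the genes chosen at 2 months, the SLC15 list held 4 other carriers, 3 of them tested, and the lysosomal carrier Slc15a3 fell at 5 months (log2 fold change -1.13, SE 0.132, edgeR adjusted p = 0.000273). Slc15a1, the intestinal paralog of Slc15a2, had at most 1 count in any library. The PTK6 list held 7 tested genes besides Ptk6. Frk, a kinase of the same family, rose by 0.48 at 5 months (SE 0.125, edgeR adjusted p = 0.0166), and Khdrbs1, an RNA-binding substrate of PTK6, fell by 0.23 (SE 0.0715, edgeR adjusted p = 0.0443). Of the calpain list, 10 other genes were tested at 5 months, and Capns1, the small subunit shared by the ubiquitous calpains, was the one called, lower in PPARγ-KO (log2 fold change -0.25, edgeR adjusted p = 0.0114). Capn9, the partner of CAPN8 in stomach, had at most 2 counts in any library. The other 5 Iroquois genes had too few counts to test at either time.

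Among the relatives of the genes chosen at 5 months, the syntenin list showed changes in both directions at 5 months. Sdcbp, the widely expressed syntenin, fell (log2 fold change -0.46, SE 0.0678, edgeR adjusted p = 0.000505), and the syndecans, which are proteoglycans bound by syntenins, were split. Sdc3 fell by 0.84 in log2 units (edgeR adjusted p = 8.12e-06), Sdc2 rose by 0.46 (0.000221) and Sdc4 rose by 0.56 (0.00041). Of the 9 RUFY and lysosome transport genes tested, Plekhm1 and Plekhm2, adaptors of late endosomes and lysosomes, fell by 0.38 and 0.53 at 5 months (edgeR adjusted p = 0.00747 and 0.0126), and Rufy1, Rufy2 and Rufy3 were not called. Of the mucin O-glycan list, 4 genes were tested at 5 months, and Galnt6, which starts O-glycans, fell by 0.67 (edgeR adjusted p = 0.022). The stomach mucin gene Muc6, whose glycans A4GNT is known to modify, had 1 to 11 counts a library. Of the relatives named here for 5 months, Khdrbs1 lost its call in 7 of 13 alternatives (adjusted p up to 0.156), Galnt6 in 5 (up to 0.127) and Frk in 4 (up to 0.141). Khdrbs1 lost it in DESeq2 (0.151), with no filter (0.074), with the replicate block (0.0827), and without WT replicate 2 or 3 or PPARγ-KO replicate 2 or 3. Galnt6 lost it on leaving out any library except WT replicate 1, and Frk without WT replicate 2, PPARγ-KO replicate 1 or PPARγ-KO replicate 3 and in the fit of all 12 libraries. Capns1 lost it without WT replicate 2 (edgeR adjusted p = 0.0507), Plekhm2 without WT replicate 3 (0.0628) and Sdc4 in the fit of all 12 libraries (0.0517).

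Of a list of circadian clock genes, Ciart ranked between Lrtm1 and A4gnt in the contrast at 5 months and is left out of the counts here. Of the other 15 genes, edgeR called 0 at 2 months, beside 3.56% of all genes tested. At an unadjusted p under 0.05 the count was 3, and DESeq2 called 1, beside 6.78%. At 5 months it called 6 higher (Cry2, Per1, Per2, Nr1d1, Tef and Hlf), beside 18.4% of all genes tested, and the median log2 fold change of the 15 was 0.42. Per2 lost the call in 4 of 13 alternatives, namely without WT replicate 1, 2 or 3 and with the replicate block (edgeR adjusted p up to 0.0748), and Per1 and Nr1d1 lost it in the fit of all 12 libraries (0.317 and 0.23).

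**Figure D4:**
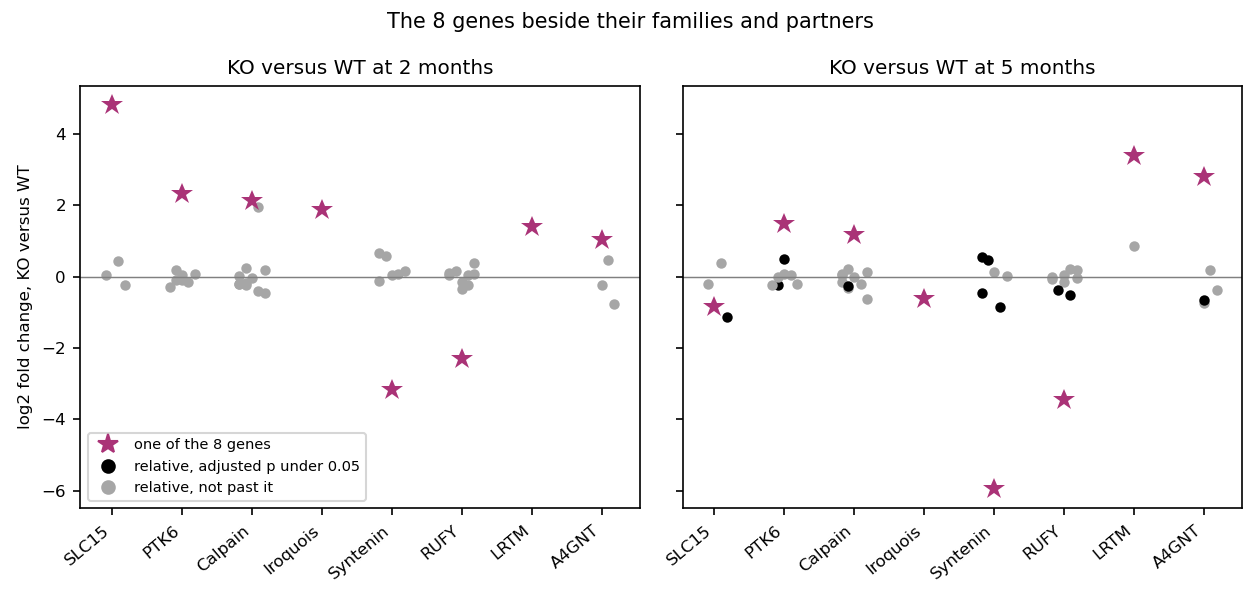
Log2 fold change of PPARγ-KO versus WT (y axis) at 2 months (left) and 5 months (right) for each of the 8 genes (stars) and the tested members of its list (points, black where edgeR's adjusted p was under 0.05). At 2 months no point is black, and the grey point beside Capn8 is Capn11, at 1.95 with a standard error of 1.70. At 5 months the called relatives lie between -1.13 and 0.56.

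Several of the 8 genes are known from cells other than hepatocytes, and in whole liver fewer cells of a type and less RNA per cell cannot be told apart. The counts of markers called by edgeR, here and below, stand beside 3.56% of all genes tested at 2 months and 18.4% at 5 months. Counts by DESeq2 at 2 months stand beside 6.78%. Beside Rufy4, the 10 dendritic cell markers summed to 35.9 to 47.9 CPM in WT and 29.5 to 33.2 in PPARγ-KO at 2 months, with 1 called lower (Itgax). At 5 months they summed to 28.9 to 41.7 CPM in WT and 28.1 to 30.4 in PPARγ-KO, with 2 of 9 tested called lower, and each of the 10 had counts in every group. The macrophage markers summed to 493 to 628 CPM in WT and 511 to 613 in PPARγ-KO at 2 months, with 1 of 10 called, higher. At 5 months they summed to 1384 to 1598 CPM in WT and 635 to 875 in PPARγ-KO, and 9 of 10 were called lower. The stellate cell and fibroblast markers summed to 616 to 784 CPM in WT and 477 to 501 in PPARγ-KO at 2 months, with 1 of 10 called lower, and to 733 to 864 and 573 to 634 at 5 months, with 4 called lower.

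The endothelial markers overlapped at 2 months, with 0 of 10 called by edgeR, 2 at an unadjusted p under 0.05 and 0 by DESeq2. At 5 months they summed to 352 to 359 CPM in WT and 292 to 316 in PPARγ-KO, with 4 called lower. The T, B and NK cell markers summed to 5.24 to 6.95 CPM in WT and 4.33 to 6.03 in PPARγ-KO at 2 months, and to 10.1 to 18.5 and 3.53 to 10.5 at 5 months, where 2 of 8 tested were called lower (median log2 fold change -1.30). The neutrophil markers summed to 8.07 to 10.6 CPM in WT and 5.28 to 7.11 in PPARγ-KO at 2 months, and to 9.24 to 16.8 and 5.43 to 8.21 at 5 months, where 2 of 4 tested were called lower (-1.08). At 2 months edgeR called 0 genes of either list, with 1 and 2 at an unadjusted p under 0.05 and 0 by DESeq2. The part of these cell types in the lower Rufy4 and Sdcbp2 was not tested.

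Beside the epithelial genes, the cholangiocyte markers summed to 166 to 254 CPM in WT and 125 to 154 in PPARγ-KO at 2 months, with 0 of 10 called by edgeR, 2 at an unadjusted p under 0.05 and 1 called by DESeq2. Spp1 had the most counts of the 10 in every library, with a log2 fold change of -0.92 at 2 months (edgeR adjusted p = 0.143). Of the 10 markers, 5 had a positive and 5 a negative log2 fold change at 2 months. At 5 months they summed to 215 to 371 CPM in WT and 283 to 326 in PPARγ-KO, with 1 of 9 tested called higher and 1 lower. Gastric and pancreatic markers were at or near 0, including Gkn1, Gkn2 and Cpa1 at 0 in every library, apart from the elastase gene Cela1, which had 128 to 329 counts. Capn8 and A4gnt were counted in these same libraries, and their source was not tested. Muc6, too low for the fit, had 7, 10 and 4 counts in WT and 6, 8 and 11 in PPARγ-KO at 2 months. At 5 months it had 1, 2 and 4 counts in WT and 5, 10 and 5 in PPARγ-KO. The skeletal muscle markers, listed because of Lrtm1, summed to at most 1.51 CPM in any library. The hepatocyte markers summed to 59140 to 74520 CPM in WT and 77540 to 91550 in PPARγ-KO at 2 months, with 0 of 10 called by edgeR, 6 at an unadjusted p under 0.05 and 5 called by DESeq2. At 5 months they summed to 59310 to 63150 CPM in WT and 77630 to 89160 in PPARγ-KO, with 3 of 10 called higher. Alb had the most counts of the 10 in every library and weighs most in these sums. Its mean CPM in PPARγ-KO was 1.29 times that of WT at 2 months and 1.54 times at 5 months. At 5 months 7 of the 10 had a positive log2 fold change, and 3 (Apoa1, Fgb and Cyp2e1) a negative one. The part of the hepatocyte markers in the differences of the 8 genes was not tested.

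For each of the 8 genes, the genes with the most similar profile were found by the root mean square (RMS) difference of centred log2 CPM over the 12 libraries, among 15119 genes. The distance grows with a gene's own spread, so the median distance over all genes compared is given beside each. Capn8 was nearest to Mup21 (RMS 0.338, median 0.926), with Mup3 at rank 3 (0.407), both of which encode major urinary proteins. Ptk6 was nearest to the cytochrome P450 gene Cyp2c29 (0.375, median 0.915), with Cyp1a2 at rank 3 (0.421). Rufy4 was nearest to Bhlhb9 (0.399, median 1.17) and Irx1 to Gm15452 (0.391, median 0.745). A4gnt was nearest to Atp2b2, a plasma membrane calcium pump (0.513, median 1.20), and Lrtm1 to Chic1 (0.773, median 1.57). Sdcbp2 was nearest to Gprc5b (0.964, median 1.92), with the lipid droplet gene Cidec at rank 2 (0.998), and Slc15a2 to 1700045H11Rik (1.02, median 1.51). The 12 libraries are the same for every gene, and a small distance is a description of likeness in these libraries.

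Genes whose annotated spans overlap one of the 8 had few counts. Spans and exon lengths of all 8 genes in the files equalled those of GENCODE M21 on GRCm38, and all are protein coding. Lrtm1 lies wholly within the span of Cacna2d3 on the opposite strand, with 0 shared exonic bases, and Cacna2d3 had 0 to 5 counts a library. Slc15a2 overlaps the pseudogene Gm8425, also with 0 shared exonic bases, which had at most 1 count. Ptk6 lies 2773 bases from Srms, a kinase gene of the same family on the same strand, which had 1 to 21 counts. Sdcbp2 and Rufy4 had 544 and 1092 bases to their nearest neighbours, Snph with 0 to 3 counts and Tns1 with 2125 to 4704 counts.

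**Figure D5:**
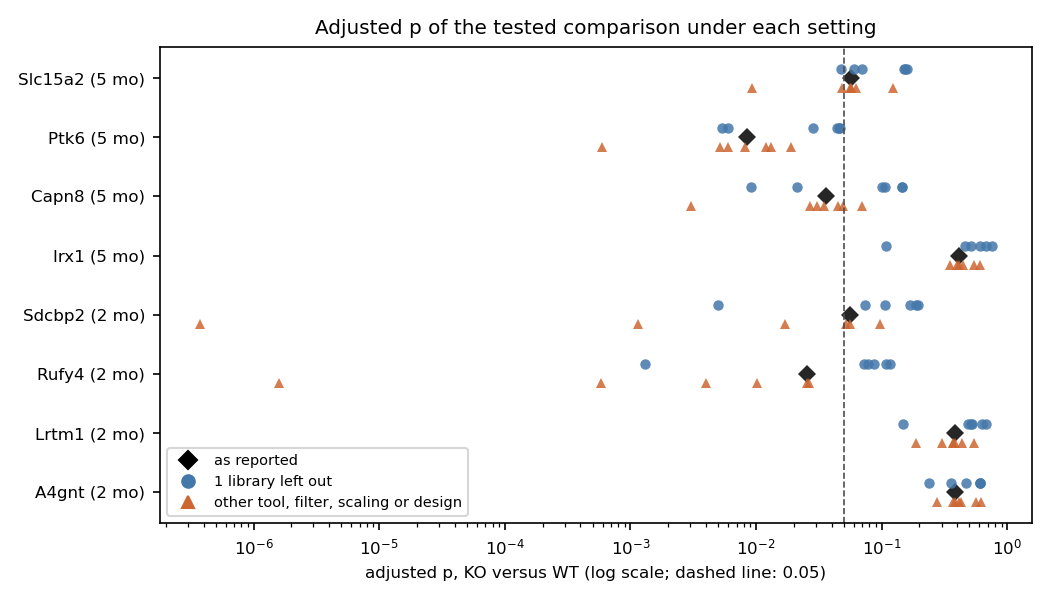
Adjusted p of the tested contrast (x axis, log scale, dashed line at 0.05) for each of the 8 genes (y axis, with the time tested in brackets). Diamonds are the reported edgeR values, circles leave out 1 library each, and triangles are the other tools, filters, scalings and designs. For Ptk6 every symbol lies left of the line, and for Irx1, Lrtm1 and A4gnt every symbol lies right of it.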

How the data were processed

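RNA of 12 mouse liver samples was extracted with TRIzol, prepared and sequenced by Novogene on Illumina NovaSeq. Per the labels and the file headers, the authors deposited raw read counts for 54532 genes per library, not normalized, with coordinates on mm10. The study's methods name STAR as the aligner and the submitters' processing notes name HISAT2. The counting program, the annotation release and the use of strand are not given in the sources used here. In the tables, 27 gene names stored as spreadsheet dates were restored by gene identifier.

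The 8 genes and all gene lists were chosen with earlier results of these data known. PPARγ-KO was compared with WT at each time in a fit of 6 libraries with edgeR 4.0.16 in R 4.3.3: filterByExpr, TMM scaling, robust quasi-likelihood, two-sided F-test and Benjamini-Hochberg adjustment over all genes tested, called at an adjusted p under 0.05. Standard errors of log2 fold changes come from the same fit, and 95% intervals are unadjusted. Fits were tested on simulated data. Library totals ran from 16367775 to 27452284, and limits for a count of 0 (3 counts) cover counting error only. Named genes are the 8, Pparg, the listed relatives and markers, genes overlapping or next to one of the 8, the 3 most similar profiles of each (log2 of CPM plus 0.25), and the genes ranked next to the 8. Capn11, Cela1 and the flanking genes were named after their values were seen. Promoter sequences are from RefSeq (GRCm38.p6) and gene models from GENCODE M21.

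Over the 5000 most abundant genes, same-numbered PPARγ-KO and WT libraries correlated at 0.22, 0.324 and 0.139 at 2 months once group means were removed, so that the replicate numbers were treated as pairs there as an alternative. Differently numbered libraries ran from -0.274 to 0.115 at 2 months, the highest being PPARγ-KO replicate 3 with WT replicate 1. At 5 months the same-numbered values were -0.0762, -0.0612 and -0.183, and the others ran from -0.0548 to 0.151. The labels do not say what a number marks. Alternatives were an adjusted p under 0.1, an added 1.3-fold change, DESeq2 1.42.0 with the same filter, scaling by its size factors or by library totals only, keeping every gene with a count or those reaching 10 counts in each library, a block for the replicate number, a joint fit of all 12 libraries, and leaving out each library.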

Additional observations from a re-analysis of the deposited data

Results flagged for a closer look

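Slc15a2 was flagged because its libraries moved in opposite directions at the 2 times. All 3 PPARγ-KO libraries lay above all 3 WT libraries at 2 months, the contrast that chose the gene (log2 fold change 4.81), and all 3 lay below at 5 months (log2 fold change -0.84). Seen over time, Slc15a2 was 3.65 higher on the log2 scale at 5 than at 2 months in WT, and the same difference was -2.02 in PPARγ-KO, again with no overlap in either genotype. No share of all genes without overlap between the times was counted. Irx1 was flagged for the same shape over time, at 0.91 in WT and -1.62 in PPARγ-KO. The difference between the times or genotypes was not tested for either gene, and PPARγ-KO at 2 months, the group whose high level chose both genes, enters each of these pairs. With 3 libraries in each group, the 8 genes were not searched for single outlying values.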

How the results depend on the processing

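At 2 months edgeR called 519 genes, and the count was 988 in DESeq2, 1562 with no filter, 1153 in a fit of all 12 libraries, 817 with the replicate block and 1063 at an adjusted p under 0.1. Leaving out 1 library gave 117 (without WT replicate 2) to 1577 (without WT replicate 1). Of the 4 genes chosen at 5 months, 1 was called at 2 months, beside 3.56% of all genes tested. In DESeq2, with no filter, in the fit of all 12 libraries and at an adjusted p under 0.1, 2 were called. Those settings called 6.78%, 5.95%, 7.62% and 7.29% of all genes tested, in that order. With at least 10 counts in every library, which removed Sdcbp2 and Rufy4, the count was 0, beside 3.73%. Leaving out 1 library gave 0 to 2, beside 0.788% to 10.6% of all genes tested. At 5 months edgeR called 2602 genes, and leaving out 1 library gave 1593 (without WT replicate 3) to 3078 (without WT replicate 1). Of the 4 genes chosen at 2 months, 2 (Ptk6 and Capn8) were called at 5 months, beside 18.4% of all genes tested. In the fit of all 12 libraries 1 was called, beside 13.5%. With library size alone, with no filter and at an adjusted p under 0.1 the count was 3, with Slc15a2 added, which was lower. Those settings called 19.7%, 11.3% and 25% of all genes tested, in that order. Leaving out 1 library gave 1 to 2, beside 11% to 21%. Without PPARγ-KO replicate 3 (11.9%) the 2 were Ptk6 and Slc15a2. The cause of these changes was not tested, and some settings also leave fewer libraries or genes.

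In the tested contrasts, no fold change of the 8 genes changed sign in the alternatives that gave a value. The differences over time that reversed were small ones, each on leaving out 1 library. Over these alternatives Capn8 in WT ran from -0.43 to 0.044 (positive without WT 5 months replicate 3), Rufy4 in WT from -0.37 to 0.34 (positive without WT 2 months replicate 2 and, at 0.072, without WT 5 months replicate 1), Lrtm1 in PPARγ-KO from -0.55 to 0.096 (positive without PPARγ-KO 2 months replicate 2), and A4gnt in PPARγ-KO from -0.13 to 0.45 (negative without PPARγ-KO 2 months replicate 3 and, at -0.055, without PPARγ-KO 5 months replicate 2). The replicate block changed the call of none of the 8 genes in its tested contrast, with Sdcbp2 at an edgeR adjusted p of 0.0968 and Rufy4 at 0.0102 at 2 months. It called 2 of the listed relatives at 2 months in place of 0, beside 5.61% of all genes tested. With library size alone as the scaling, the median log2 fold change of all genes was -0.0824 at 2 months and -0.073 at 5 months. With TMM it was -0.005 and -0.006. Genes with under 10 counts in a library, among them Sdcbp2 and Rufy4 in PPARγ-KO, have fold changes limited by depth.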
